A study of Mus musculus with 6 samples.

Results

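The TGF-beta ligand, receptor and SMAD genes of virus-specific CD4+ T cells were followed here as a set of 10 genes, chosen by name from the deposited count table of 15445 genes. They are the ligand gene Tgfb1, the receptor genes Tgfbr1, Tgfbr2 and Tgfbr3, the SMAD genes Smad2, Smad3, Smad4 and Smad7, and the corepressor genes Ski and Skil. All 10 had a row in the table and all 10 passed the filter on low counts. The cells were transgenic CD4+ T cells of a single receptor specificity, from the spleen of C57BL/6 mice, taken 5 days after the mice were infected with lymphocytic choriomeningitis virus (LCMV). They were sorted by surface CD4, by Thy1.1, a congenic marker, and by the level of CD25, one chain of the interleukin-2 receptor, into 3 CD25-high and 3 CD25-low libraries numbered 1 to 3 in each group. Every group therefore shares the transgene, the infection and the day, and no uninfected or unsorted cells were compared. The labels name neither the receptor nor the age of the mice, nor whether a library came from one animal or a pool, so p-values measure spread among libraries that may be technical in part.

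TGF-beta is secreted in a latent form and, once released, binds the type II receptor TGFBR2, which then recruits and phosphorylates the type I receptor TGFBR1. TGFBR1 phosphorylates SMAD2 and SMAD3, which join SMAD4 and enter the nucleus, where SKI and SnoN (the product of Skil) repress SMAD-driven transcription. SMAD7 blocks TGFBR1, and its gene is itself switched on by the pathway. In T cells TGF-beta is known for restraining proliferation, Th1 and cytotoxic differentiation, and responses to interleukin-2.

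In CD25-high cells the transcripts of Smad3 and Tgfbr2 were lower than in CD25-low cells of the same number. Smad3 was 2.21-fold lower and was the single gene of the 10 whose libraries did not overlap between groups, as held for 16.9% of all tested genes. Neither gene passed an adjusted p of 0.05 when the libraries were treated as unpaired. Both fell when same-numbered libraries were paired, which the data but no label support. The ligand gene, the other receptors, Smad2, Smad4, Smad7, Ski and Skil did not pass in either fit.

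The sequences before the start sites of Smad3, Tgfbr2 and Tgfbr1 are shown because Smad3 and Tgfbr2 are the genes that fell and Tgfbr1, the partner receptor, did not. They come from RefSeq (GRCm38.p6, the mouse assembly also called mm10), whose promoter table held 5 of the 10 genes. Each is the 250 bases before the RefSeq start, 5′ to 3′ on the gene's own strand, with the SMAD box GTCT or its reverse complement AGAC in capitals.
Smad3, chr9:63757995-63758244, minus strand: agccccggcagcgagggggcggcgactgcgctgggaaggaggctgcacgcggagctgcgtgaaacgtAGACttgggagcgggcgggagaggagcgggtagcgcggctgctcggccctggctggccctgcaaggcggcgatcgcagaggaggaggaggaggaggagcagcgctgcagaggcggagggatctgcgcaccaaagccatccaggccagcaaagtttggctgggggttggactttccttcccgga
Tgfbr2, chr9:116175364-116175613, minus strand: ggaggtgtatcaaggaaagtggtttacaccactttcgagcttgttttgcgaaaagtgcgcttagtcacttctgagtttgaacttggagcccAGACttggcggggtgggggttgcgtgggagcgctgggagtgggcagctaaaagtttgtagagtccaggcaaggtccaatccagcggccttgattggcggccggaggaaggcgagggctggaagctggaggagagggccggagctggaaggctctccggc
Tgfbr1, chr4:47352972-47353221, plus strand: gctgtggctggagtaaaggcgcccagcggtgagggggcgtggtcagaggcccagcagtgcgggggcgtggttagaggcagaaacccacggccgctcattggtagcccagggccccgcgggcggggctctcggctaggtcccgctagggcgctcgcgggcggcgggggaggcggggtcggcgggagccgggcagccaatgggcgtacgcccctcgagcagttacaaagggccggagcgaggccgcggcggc

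The Smad3 stretch held 1 SMAD box, starting 183 bases before the start, and the Tgfbr2 stretch 1, starting 159 bases before it, while the Tgfbr1 stretch held 0. On both strands, 82.9% of the 32851 promoters of the same length held at least 1 SMAD box, with a median of 2, so its presence sets neither gene apart. The palindrome GTCTAGAC, which contains a SMAD box on each strand, and the STAT element TTCNNNGAA were in none of the 3 stretches, and were in 0.167% and 7.02% of all promoters. The core CTTTG read by TCF1 and LEF1 had 2 matches for Smad3, 1 for Tgfbr1 and 0 for Tgfbr2, with at least 1 in 48.6% of all promoters. The GC box GGGCGG had 2 matches for Smad3, 2 for Tgfbr1 and 0 for Tgfbr2 (32.7% of all promoters). The stretches were 69.2% G or C for Smad3, 58.4% for Tgfbr2 and 74.8% for Tgfbr1. These matches describe letters and show no binding.

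Total counts ranged from 16787233 to 23567066 per library. Mitochondrial ribosomal RNA made up 29.3% (CD25-high library 3) to 35.3% (CD25-low library 1) of them and stayed in the library sizes. Il2ra, which encodes CD25 and checks the sort labels, had 432 to 1536 CPM in the CD25-high libraries and 20.7 to 35.7 CPM in the CD25-low libraries, where CPM is the count scaled by the TMM-adjusted library size. T cell markers matched the label: all 9 listed had a row, and their summed level was 3292 to 3417 CPM in the CD25-high libraries and 3409 to 4403 CPM in the CD25-low libraries. With the block, Cd3d, Cd3g and Trbc1 of these 9 fell and 6 did not pass. The deposited table has no row for Ms4a1 and Cd79a of B cells, Cd8a, Ncr1 of natural killer cells, Cd14 and Adgre1 of macrophages, S100a8 of neutrophils, Flt3 of dendritic cells, Pf4 of platelets, the globin genes, or Cdh5 and Col1a1 of endothelium and stroma. Over the 6 libraries the most abundant markers that did have a row were Cd22 at 1.80 to 15.3 CPM for B cells, Klrb1c at 0.00 to 2.09 for natural killer cells, Csf3r at 0.00 to 0.68 for neutrophils, Zbtb46 at 4.46 to 14.7 for dendritic cells and Alas2 at 1.82 to 3.34 for erythroid cells. Cd22 was lower in the CD25-high library of each pair. Cd8b1 of CD8 T cells had 3.51 to 5.33 CPM in the CD25-high and 1.59 to 2.32 CPM in the CD25-low libraries, with no overlap, and passed in neither fit. Pecam1, an endothelial marker that T cells also express, had 24.2 to 40.9 against 50.3 to 73.8 CPM, with no overlap, and fell with the block (-0.96 ± 0.24, edgeR adjusted p 0.0402), as did Smad3 and Tgfbr2. Of 6 regulatory T cell markers, Il2ra, the sort marker, rose and Ikzf2 fell in both fits (88.2 to 114 against 197 to 313 CPM, -1.40 ± 0.22, edgeR adjusted p 0.0241 without a block), and 4 did not pass. Of these 4, Foxp3 had 2.29 to 5.78 against 0.744 to 2.30 CPM, higher in the CD25-high library of each pair but with overlap between groups. Foxp3 shares 18.6% of its exonic length with Flicr on its own strand. Nrp1 went the other way, at 19.3 to 37.9 against 42.2 to 48.3 CPM, lower in each pair and with no overlap. Ctla4 and Tnfrsf18 overlapped and had no single direction over the pairs. The part of these markers in the results below was not tested. Of all 12987 tested genes, 0.655% were called by edgeR at an adjusted p of 0.05 without pairing, 0.501% as lower in CD25-high cells, and 4.63% with the replicate number as a block. Library 1 was higher than libraries 2 and 3 in both groups for 19.2% of tested genes and lower in both for 21.1%. The like shares for libraries 2 and 3 were not measured.

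Smad3 encodes a receptor-activated SMAD that binds DNA directly. CD25-high libraries 1, 2 and 3 had 21.1, 36.7 and 20.8 CPM of Smad3, and CD25-low libraries 58.0, 61.1 and 54.4 CPM. The highest CD25-high library lay below the lowest CD25-low library, and CD25-low libraries were close together while CD25-high library 2 stood above the other two. Of all tested genes, 9.54% had such a gap with lower values in CD25-high cells. The means were 26.2 ± 9.09 against 57.8 ± 3.34 CPM (SD, n = 3 each). This gave a log2 fold change of -1.14 ± 0.27 (SE) and an edgeR adjusted p of 0.117 over all tested genes. With the replicate block it was -1.19 ± 0.22 and the edgeR adjusted p 0.00593, and DESeq2 without a block, which called 1.87% of its tested genes lower, gave an adjusted p of 0.00789. With the block and without pair 1, 2 or 3 the log2 fold change lay between -1.43 and -1.06 (edgeR adjusted p 0.0401, 0.000903 and 0.0200). These fits have few libraries to estimate an error from. Without pair 2 the edgeR adjusted p of Il2ra was 1.9e-91, too small for so few libraries. The p-values of these fits therefore cannot show how robust the Smad3 call is, nor any other blocked call below. In bulk RNA, fewer cells that express a gene and less RNA per cell cannot be told apart.

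Smad2, the other receptor-activated SMAD of the pathway, differed less than Smad3 and did not pass. CD25-high libraries had 38.8, 55.5 and 62.2 CPM of Smad2 and CD25-low libraries 60.9, 68.0 and 63.8 CPM. Each CD25-high library was below the CD25-low library of the same number, but the groups overlapped. Smad2 changed by -0.30 ± 0.23 on the log2 scale, with an edgeR adjusted p of 0.686, and 0.413 with the block. Smad4, the shared partner of both, had 41.4, 31.9 and 28.9 CPM in the CD25-high libraries and 39.0, 39.6 and 40.9 CPM in the CD25-low libraries. CD25-high library 1 was the highest of all 6 and libraries 2 and 3 were the lowest, and the log2 fold change was -0.23 ± 0.23 (edgeR adjusted p 0.779).

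The balance between the receptor-activated SMADs therefore differed within each library, a comparison that no scaling between libraries can move. Per kilobase of annotated exon, the ratio of Smad3 to Smad2 was 0.863, 1.05 and 0.529 in CD25-high libraries 1, 2 and 3 and 1.51, 1.42 and 1.35 in CD25-low libraries. CD25-low cells held more Smad3 than Smad2 per length in each library, and CD25-high cells did so in library 2 alone. In CPM, Smad2 was above Smad3 in every library. Which gene is higher thus rests on the annotated exonic lengths, 8781 bases for Smad2 and 5542 for Smad3. The ratio averaged 0.813 ± 0.263 against 1.43 ± 0.0782 (SD, n = 3 each), with no overlap. It is given with no test, because it was chosen after the values were seen. How often other gene pairs show such a gap was not measured.

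**Figure D1:**
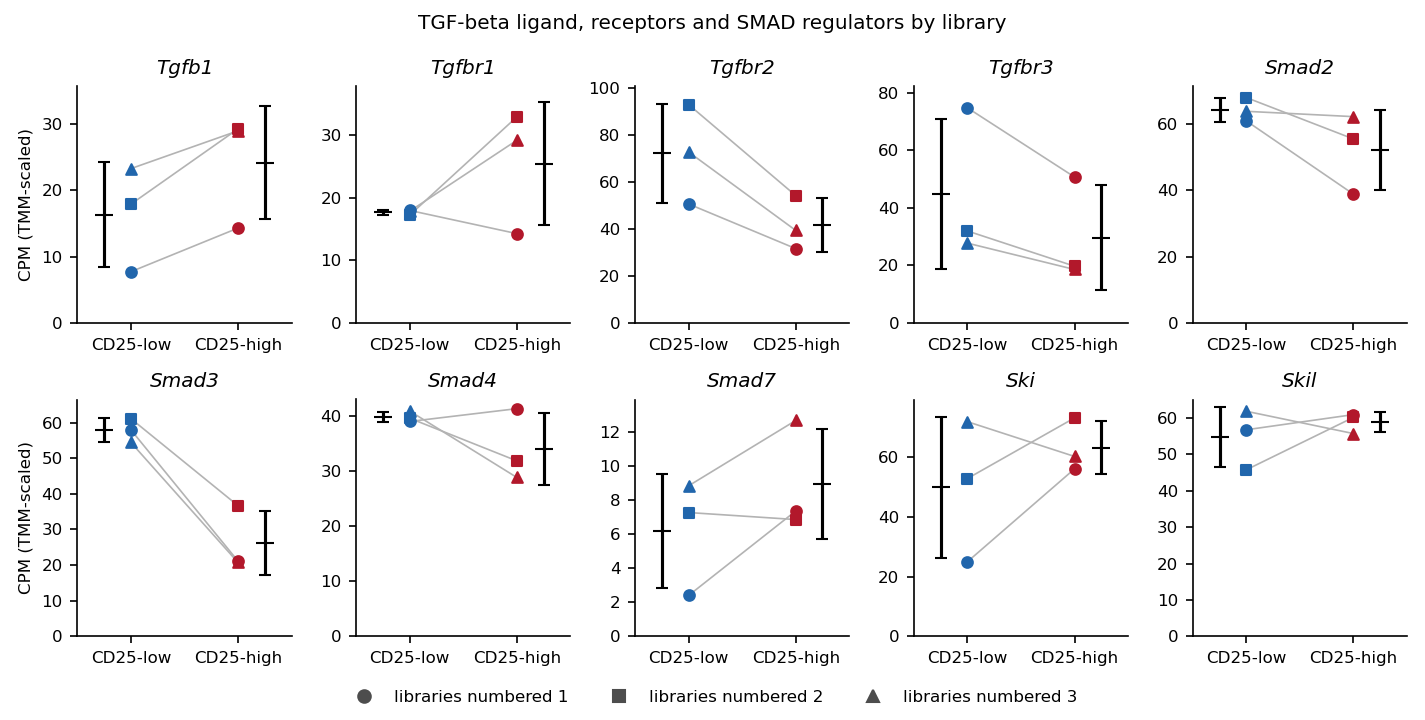
Normalised level of each gene (vertical axis, CPM after TMM scaling, from 0) in the 3 CD25-low (blue) and 3 CD25-high (red) libraries, with grey lines joining libraries of the same number and black bars giving mean ± SD. Smad3 is the single panel without overlap between groups, and in the Tgfbr2 and Tgfbr3 panels each line falls although the groups overlap.

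Tgfbr2 encodes the receptor that binds the ligand first and without which the canonical pathway does not start. CD25-high libraries 1, 2 and 3 had 31.6, 54.1 and 39.3 CPM of Tgfbr2, and CD25-low libraries 50.5, 92.8 and 72.6 CPM. CD25-high library 2 lay above CD25-low library 1, so the groups overlapped, but each CD25-high library held 0.625, 0.583 and 0.541 of the level in the CD25-low library of its number. The means were 41.7 ± 11.4 against 72.0 ± 21.1 CPM. In the unpaired fit the log2 fold change was -0.79 ± 0.28 with an edgeR adjusted p of 0.332, and -0.78 ± 0.18 with 0.0257 under the replicate block. The blocked call was kept without pair 1 (edgeR adjusted p 0.0349) and lost without pair 2 (0.154) or pair 3 (0.137), with a log2 fold change of -0.83 to -0.72 in these 3 fits.

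Tgfbr1, which encodes the kinase that phosphorylates SMADs, had the opposite sign to Tgfbr2 and did not pass. CD25-low libraries were nearly equal, at 18.0, 17.2 and 17.9 CPM of Tgfbr1, while CD25-high libraries had 14.3, 33.0 and 29.2 CPM. CD25-high libraries 2 and 3 were above every CD25-low library and library 1 was below them all. Its log2 fold change was 0.53 ± 0.32, with an edgeR adjusted p of 0.598 without and 0.466 with the block. Without pair 1 it was 0.82 in both fits (edgeR adjusted p 0.133, and 0.105 with the block).

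The 2 signalling receptors thus stood in a different ratio within libraries. Per kilobase of exon, Tgfbr1 was 0.567, 0.763 and 0.931 of Tgfbr2 in CD25-high libraries 1, 2 and 3, and 0.446, 0.233 and 0.308 of it in CD25-low libraries. The lowest CD25-high ratio exceeded the highest CD25-low ratio, and the closest values were those of the libraries numbered 1. The means were 0.754 ± 0.182 and 0.329 ± 0.108 (SD, n = 3 each). This ratio too was chosen after the values were seen and carries no test. The ratio of Tgfbr3 to Tgfbr2, taken in the same way, overlapped between groups (CD25-high 1.02 ± 0.86, CD25-low 0.919 ± 0.806). So did the ratio of Skil to Ski (CD25-high 0.543 ± 0.0764, CD25-low 0.766 ± 0.467).

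**Figure D2:**
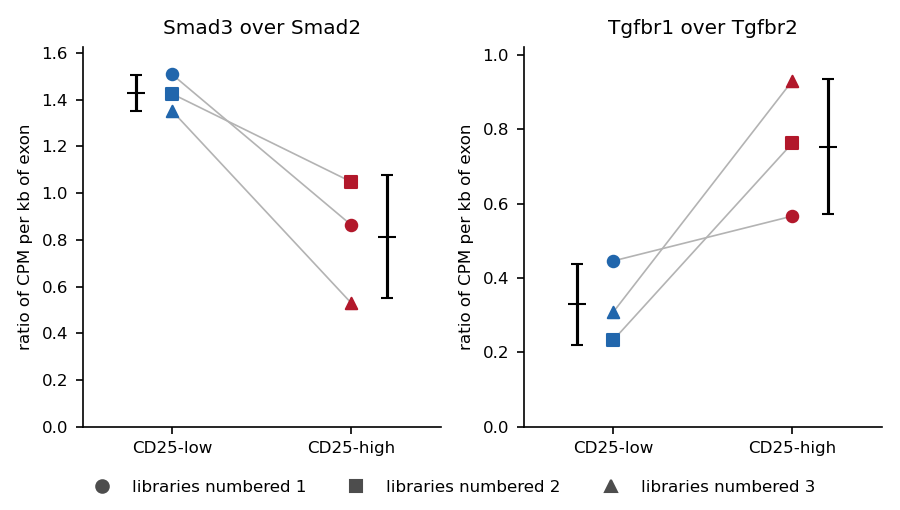
Ratio of CPM per kilobase of exon (vertical axis, no unit, from 0) of Smad3 over Smad2 (left) and of Tgfbr1 over Tgfbr2 (right) in each library, with grey lines joining libraries of the same number and black bars giving mean ± SD. The CD25-high ratios lie below all CD25-low ratios on the left, 0.813 against 1.43 on average, and above them on the right, 0.754 against 0.329. Both ratios were chosen after the values were seen, and other ratios taken, which overlapped between groups, are not drawn.

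Tgfbr3 encodes betaglycan, a coreceptor without kinase activity that presents ligand to TGFBR2. Its level followed the library number more than the sort: library 1 had 50.7 CPM in the CD25-high libraries and 74.7 CPM in the CD25-low cells, against 19.7 and 18.6 CPM in the CD25-high libraries and 31.9 and 27.7 CPM in the CD25-low libraries 2 and 3. Within each pair, however, the CD25-high library held a like share of the CD25-low level, 0.678, 0.617 and 0.670 for pairs 1, 2 and 3. Unpaired, the log2 fold change was -0.59 ± 0.46 (edgeR adjusted p 0.697), and the block narrowed its error to -0.61 ± 0.20 with an edgeR adjusted p of 0.111. Without a block and without CD25-low library 1 the log2 fold change was -0.01. Tgfbr3 shares 297 exonic bases, 4.54% of its exonic length, with the unclassified transcript Gm43422 on its own strand, which has no row in the table.

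Tgfb1 encodes the main TGF-beta ligand of immune cells. CD25-high libraries had 14.3, 29.2 and 28.9 CPM of Tgfb1, and CD25-low libraries 7.71, 17.9 and 23.2 CPM. Library 1 was the lowest of its group in both, and each CD25-high library was above the CD25-low library of its number, by 1.85, 1.63 and 1.24 times. Tgfb1 had a log2 fold change of 0.57 ± 0.42 with an edgeR adjusted p of 0.679, and 0.63 ± 0.26 with 0.205 under the block. The unpaired value was 0.23 without CD25-low library 1 and 0.91 without CD25-low library 3. Platelets and myeloid cells also make this ligand. Of the 5 platelet markers 1 had a row, with summed levels of 0.00 to 0.319 CPM in the CD25-high libraries and 0.0852 to 0.766 CPM in the CD25-low libraries. Of the 8 monocyte and macrophage markers 4 had a row, and they summed to 26.8 to 87.6 CPM in the CD25-high libraries and 12.9 to 42.4 CPM in the CD25-low libraries. In each library but CD25-low library 1 most of that was Itgam, the integrin alpha-M gene, at 21.1, 77.2 and 71.6 CPM in the CD25-high libraries and 5.03, 26.3 and 32.1 CPM in the CD25-low libraries, which effector T cells can express as well. Itgam rose with the block (1.57 ± 0.23, edgeR adjusted p 0.0013) and did not pass without it (0.433). It shares 68.7% of its exonic length with Gm49368 on its own strand, which has no row. The part of Itgam-expressing cells in the Tgfb1 levels was not tested.

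The inhibitors of the pathway did not pass in either fit. Smad7 had the lowest level of the 10 genes per length in both groups, with 44 to 225 reads per library. CD25-high libraries had 7.37, 6.87 and 12.7 CPM of Smad7 and CD25-low libraries 2.41, 7.28 and 8.85 CPM, so that CD25-low library 1 stood alone at the bottom and the other 5 overlapped. Smad7 had a log2 fold change of 0.53 ± 0.50 (edgeR adjusted p 0.762), and 0.15 without CD25-low library 1.

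Ski, whose product recruits histone deacetylase complexes to SMADs, had 55.9, 72.9 and 60.1 CPM in the CD25-high libraries and 24.9, 52.7 and 71.7 CPM in the CD25-low libraries. CD25-low library 1 was again the lowest of the 6, and the groups otherwise overlapped. Ski had a log2 fold change of 0.34 ± 0.34 (edgeR adjusted p 0.78), and 0.02 without CD25-low library 1. Skil, the gene of the related corepressor SnoN, had 60.9, 60.1 and 55.7 CPM in the CD25-high libraries and 56.7, 45.7 and 61.8 CPM in the CD25-low libraries. Of the 10 genes it had the smallest difference in the unblocked fit, with a log2 fold change of 0.11 ± 0.21 and an edgeR adjusted p of 0.899.

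**Figure D3:**
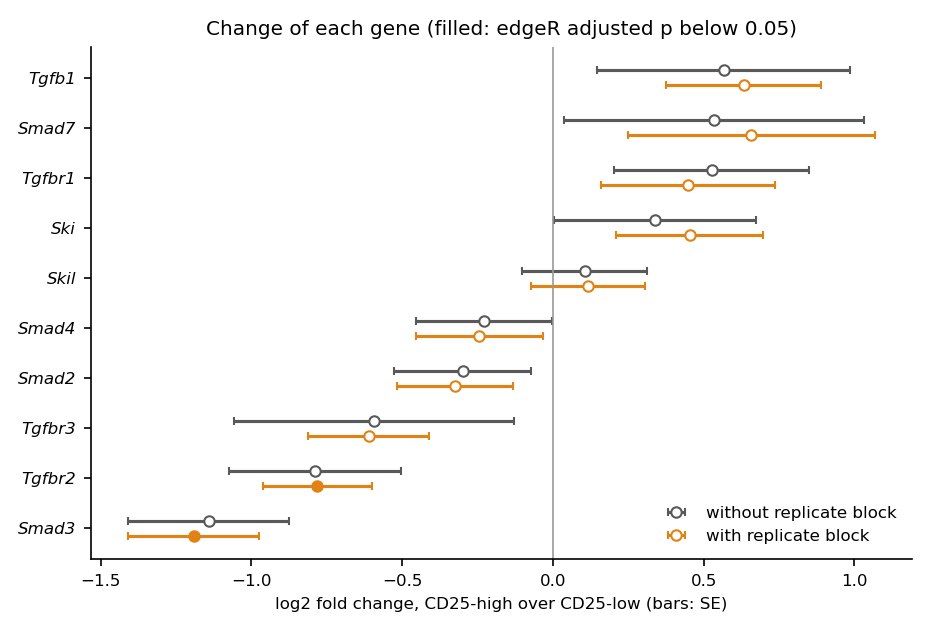
Log2 fold change of each gene, CD25-high over CD25-low (horizontal axis; bars, SE), in edgeR fits without (grey) and with (orange) the replicate block; filled points have an adjusted p below 0.05. The filled points are Smad3 at -1.19 and Tgfbr2 at -0.78, both in the blocked fit, and both fits give each gene the same sign.

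Counted over the 10 genes, 0 passed edgeR's adjusted p of 0.05 without a block, where 0.655% of all tested genes did. With the block 2 fell and 0 rose, where 2.9% of all tested genes fell and 1.73% rose. Without a block, the same 2 genes were those at an unadjusted edgeR p under 0.05, as were 11.1% of all tested genes, and DESeq2 called Smad3 alone. The median log2 fold change of the 10 was -0.06, beside 0.01 over all tested genes. Lower values in the CD25-high library of each pair were seen for Tgfbr2, Tgfbr3, Smad2 and Smad3, and higher values in each pair for Tgfb1, where 20.2% of all tested genes were lower and 20.4% higher in all 3 pairs.

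The libraries numbered 1 stood below libraries 2 and 3 in both groups for Tgfb1, Tgfbr2, Smad2 and Ski, and above them for Tgfbr3. These differences between library numbers enter the error of the unpaired fit. Tgfbr1, Smad3, Smad4, Smad7 and Skil showed no such order. CD25-high library 1 also had the highest Il2ra of the 6, at 1536 CPM.

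Levels of different genes can be set side by side per kilobase of annotated exon, although the order then depends on the annotated lengths. In CD25-low cells the order was Smad4 (10.7 ± 0.262 CPM per kilobase, SD, n = 3), Smad3 (10.4 ± 0.602), Ski (8.95 ± 4.23), Tgfbr2 (8.79 ± 2.58), Smad2 (7.31 ± 0.403), Tgfbr3 (6.84 ± 3.97), Skil (5.65 ± 0.847), Tgfb1 (3.23 ± 1.56), Tgfbr1 (2.71 ± 0.0613) and Smad7 (1.37 ± 0.743). Neighbours in that order overlapped, apart from the steps from Skil to Tgfb1 and from Tgfbr1 to Smad7. In CD25-high cells Ski (11.3 ± 1.59 CPM per kilobase) and Smad4 (9.17 ± 1.76) led, and Smad7 (1.99 ± 0.714) was again the lowest. There the step from Smad4 to Skil (6.07 ± 0.29) was the single one without overlap. Between these, Skil, Smad2, Tgfbr2, Tgfb1, Smad3, Tgfbr3 and Tgfbr1 formed a run of means from 6.07 down to 3.90 CPM per kilobase in which neighbours could not be told apart. Smad3 stood beside Smad4 at the top of the order in CD25-low cells and within that run, at 4.73 ± 1.64, in CD25-high cells.

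On GRCm38, Smad3 (ENSMUSG00000032402) spans 63646767 to 63757994 and Tgfbr2 (ENSMUSG00000032440) 116084293 to 116175360 on the minus strand of chromosome 9. Tgfbr1 (ENSMUSG00000007613) lies at 47353222 to 47414931 on the plus strand of chromosome 4, Tgfbr3 (ENSMUSG00000029287) at 107106570 to 107289629 on the minus strand of chromosome 5, and Tgfb1 (ENSMUSG00000002603) at 25687002 to 25705077 on the plus strand of chromosome 7. Ski (ENSMUSG00000029050) spans 155154075 to 155222592 on the minus strand of chromosome 4 and Skil (ENSMUSG00000027660) 31095058 to 31122577 on the plus strand of chromosome 3. On chromosome 18, Smad2 (ENSMUSG00000024563) spans 76241580 to 76310963 and Smad7 (ENSMUSG00000025880) 75367529 to 75395935 on the plus strand, and Smad4 (ENSMUSG00000024515) 73639009 to 73703780 on the minus strand. Apart from Tgfbr3, none of the 10 shares exonic bases with another gene in GENCODE release M21.

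The rest of the pathway was read from 8 lists that hold 103 different genes, of which 88 had a row and 80 were tested. Without a block 1 of the 80 rose and 0 fell, where 0.154% of all tested genes rose and 0.501% fell. Under the replicate block there were 6 rises and 4 falls, where 1.73% of all tested genes rose and 2.9% fell. The 80 had a median log2 fold change of 0.16 without a block, beside 0.01 over all tested genes.

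Among 6 tested genes of other ligands, latency and activation, 0 passed without a block and 1 fell with it. This was Tgfb3, another TGF-beta ligand, with 0.91, 5.59 and 4.12 CPM in the CD25-high libraries and 5.63, 21.7 and 21.5 CPM in the CD25-low libraries. The groups came within a small margin of each other, at CD25-high library 2 and CD25-low library 1, and did not overlap. Its log2 fold change was -2.20 ± 0.66 (edgeR adjusted p 0.234), and -2.30 ± 0.35 (0.00184) with the block. Tgfb3 shares 257 exonic bases with Gm48008 and 163 with Gm37804 on the opposite strand, and the strand setting of the counts is not given. Furin, the protease that cleaves the ligand precursors, had a log2 fold change of 0.82 ± 0.39 and an edgeR adjusted p of 0.486. Furin was 4.39, 1.15 and 1.01 times as high in the CD25-high library of pairs 1, 2 and 3, and its log2 fold change was 0.33 without CD25-high library 1. Ltbp1, Ltbp2, Itgb6 and Thbs1 had no row, and Tgfb2, Ltbp4, Lrrc32 and Itgb8 were too low to test.

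Of 6 tested genes listed with receptors for activins, bone morphogenetic proteins and related ligands, 0 passed in either fit (median log2 fold change 0.34). These include Fkbp1a, which is not a receptor gene. The smallest p-values were those of Acvr1b (-0.61 ± 0.41, edgeR adjusted p 0.634) and Acvr1 (0.86 ± 0.70, 0.713), both type I receptors. Of 11 other SMADs and SMAD partners, 0 passed without a block and 1 rose with it, with a median of 0.05. The riser was Runx3, a Runt factor that works with SMADs and directs cytotoxic and Th1 programmes, at 125, 123 and 119 CPM in the CD25-high libraries and 63.9, 60.6 and 77.0 CPM in the CD25-low libraries. Its groups were far apart and its log2 fold change was 0.86 ± 0.19 (edgeR adjusted p 0.0939, and 0.00928 with the block). Without pair 2 the blocked edgeR adjusted p of Runx3 was 0.0614, from a fit with too few libraries to judge the call. Smad1, a SMAD of bone morphogenetic protein signalling, had 9.69, 7.03 and 4.57 CPM in the CD25-high libraries and 13.9, 14.9 and 16.7 CPM in the CD25-low libraries. It did not overlap between groups but passed in neither fit (log2 fold change -1.10 ± 0.35, edgeR adjusted p 0.267 unpaired and 0.0852 paired).

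Of 8 corepressor genes acting with SKI, SnoN and SMADs, 0 passed in either fit (median 0.02). Among them Tgif2 had a log2 fold change of 0.54 ± 0.42 and an edgeR adjusted p of 0.696, and it shares 56.6% of its exonic length with 5430405H02Rik on the opposite strand. Of 10 genes of SMAD-independent signalling, 0 passed in either fit (median 0.03), and Traf6 (0.54 ± 0.24, edgeR adjusted p 0.442) and Tab3 (0.24 ± 0.29, 0.826) had the smallest p-values.

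Among 19 tested ubiquitin, phosphatase and trafficking regulators, 0 passed without a block, while 1 rose and 1 fell with it (median 0.21). These were Pmepa1 and Ldlrad4, related membrane proteins that both hold receptor-activated SMADs away from the receptor, and they moved in opposite directions. CD25-high libraries had 24.6, 8.31 and 10.5 CPM of Pmepa1 and CD25-low libraries 6.23, 0.937 and 1.45 CPM, with library 1 highest in both groups. The log2 fold change of Pmepa1 was 2.35 ± 0.71 (edgeR adjusted p 0.232), and 2.63 ± 0.39 (0.00149) with the block. Without a block it was 1.73 when CD25-high library 1 was left out and 3.59 when CD25-low library 1 was. Ldlrad4 had 0.11, 0.16 and 0.00 CPM in the CD25-high libraries and 3.17, 3.96 and 1.24 CPM in the CD25-low libraries. These are 2, 3 and 0 reads against 58, 93 and 30, so the size of the fitted change depends on the prior count. The log2 fold change of Ldlrad4 was -4.83 ± 0.997 (edgeR adjusted p 0.0712), and -4.98 ± 0.96 (0.0088) with the block. Without pair 1 its blocked edgeR adjusted p was 0.0509, from a fit with too few libraries to judge the call. Ldlrad4 shares 52.1% of its exonic length with Fam210a on the opposite strand, so its reads are uncertain to that extent.

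Genes known from earlier work to respond to TGF-beta were read in 2 lists. Of 9 tested genes that TGF-beta can induce, 0 passed without a block and 2 fell with it, with a median log2 fold change of -0.16 without and 0.29 with the block, so that the sign of the median depends on the fit. Nt5e, the gene of the ecto-enzyme CD73, had 5.16, 4.15 and 0.282 CPM in the CD25-high libraries and 27.8, 20.2 and 20.4 CPM in the CD25-low libraries, with a wide gap between groups (-2.83 ± 0.70, edgeR adjusted p 0.13, and -3.21 ± 0.56 with 0.00466 under the block). Cdkn1b, the gene of the cell cycle inhibitor p27, had a log2 fold change of -0.91 ± 0.39 (edgeR adjusted p 0.431), and -0.94 ± 0.22 (0.0292) with the block. Without pair 1, 2 or 3 its blocked edgeR adjusted p was 0.0592, 0.1217 and 0.1294. These fits have too few libraries to judge the call. Of the 9 genes, 4 had a positive and 5 a negative log2 fold change without a block. Foxp3 (1.27), Cdkn1a (0.69) and Junb (0.25) were higher in the CD25-high library of each pair and did not pass in either fit. Tgfbi, Id1 and Cdkn2b had no row, so several classical targets could not be read. Smad7, Skil and Pmepa1, also switched on by the pathway, were counted elsewhere and not here. Of these, Pmepa1 rose with the block (2.63 ± 0.39, edgeR adjusted p 0.00149), while Smad7 and Skil did not pass in either fit.

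Of 11 tested genes that TGF-beta can repress in T cells, 1 rose without a block and 4 rose with it, where 0.154% of all tested genes rose without a block and 1.73% with it. The median log2 fold change was 1.19 without and 0.99 with the block, beside 0.01 over all tested genes in both. The log2 fold change was positive for all 11 without a block, where it was positive for 6595 of the 12987 tested genes. With the block, Gzma (-0.06) and Gata3 (-0.04) were below 0. Il2, also on the list, was too low to test and went the other way. It had 6, 8 and 2 reads in CD25-high libraries 1, 2 and 3 and 13, 11 and 21 in the CD25-low libraries. In CPM Il2 was lower in the CD25-high library of each pair, with no overlap between groups. The list holds Th1, cytotoxic and growth genes that other signals, interleukin-2 among them, also drive. It was chosen with earlier results of these data known, so its median and counts are no independent support. Il12rb2, a chain of the interleukin-12 receptor, rose in both fits, from 152 to 189 CPM in the CD25-low libraries to 315 to 546 CPM in the CD25-high libraries (1.27 ± 0.24, edgeR adjusted p 0.0443). Its call was lost on leaving out any one library except CD25-high library 1, and Il12rb2 shares 40.0% of its exonic length with Serbp1 on the opposite strand. Prf1, the perforin gene (2.31 without and 2.64 ± 0.54 with the block, edgeR adjusted p 0.356 and 0.013), Gzmb, which encodes granzyme B (1.60 and 1.89 ± 0.23, 0.348 and 0.000347), and Myc (1.19 and 0.89 ± 0.22, 0.496 and 0.0401) rose in the blocked edgeR fit and did not pass in the unblocked one. Without pair 1 the blocked edgeR adjusted p of Myc was 0.186, from a fit with too few libraries to judge the call. The unblocked log2 fold change of Myc was 0.0642 without CD25-high library 1.

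**Figure D4:**
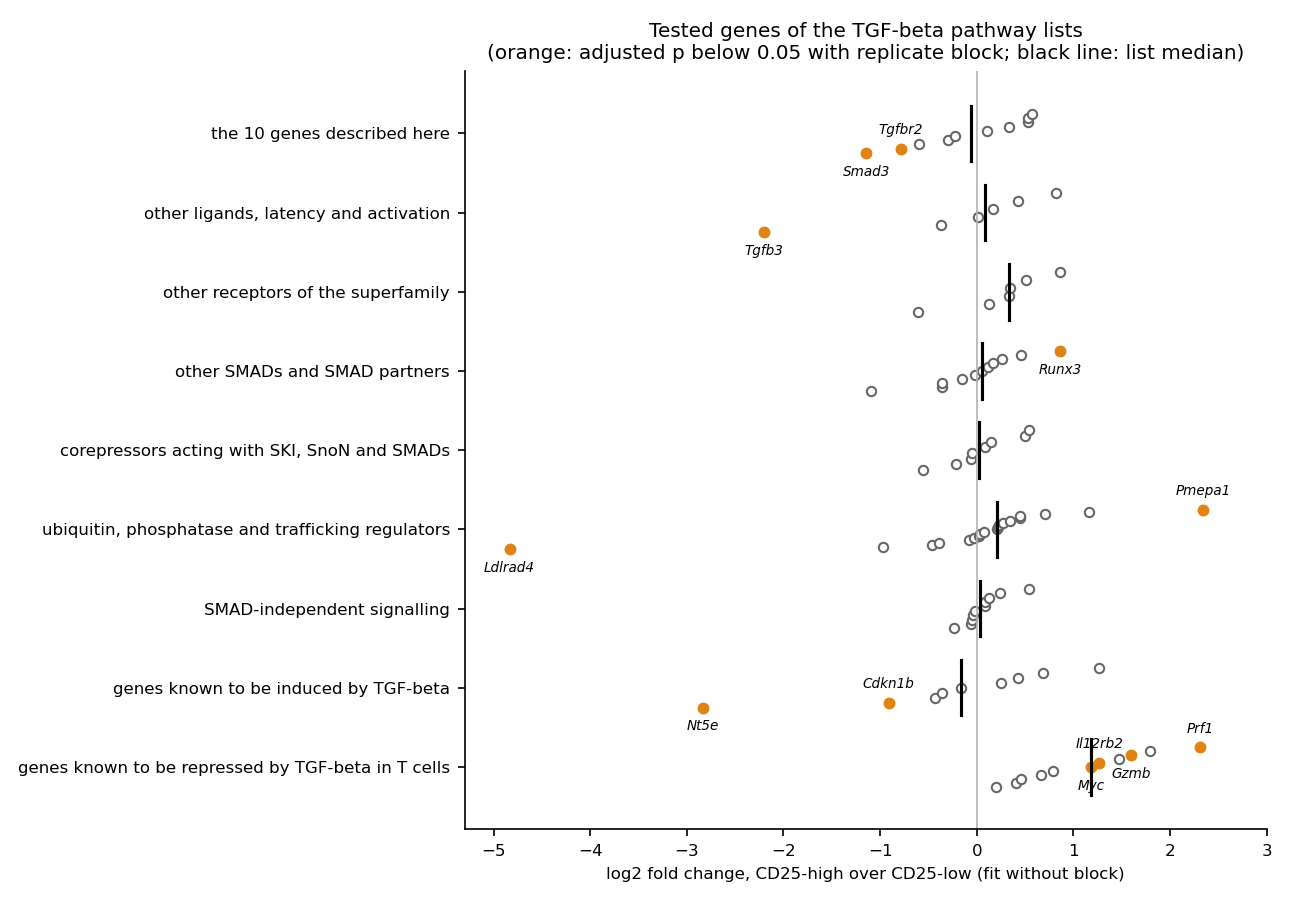
Log2 fold change in the unblocked fit (horizontal axis, CD25-high over CD25-low) of every tested gene of the 10 and of the 8 pathway lists (rows); orange points have an edgeR adjusted p below 0.05 with the replicate block and black lines are medians. Medians lie between -0.16 and 0.34 except for genes repressed by TGF-beta in T cells, at 1.19, and the largest falls are those of Ldlrad4, Nt5e and Tgfb3. All lists were chosen with earlier results of these data known.

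The genes most like Tgfbr2, Smad3 and Skil in their course over the 6 libraries were sought among 8786 tested genes with a mean of at least 5 CPM, by the root mean square difference of centred log2 CPM. Nearest to Tgfbr2 were Ablim1 (0.0883), the phospholipase gene Plcg1 (0.0886) and Gimap1os (0.0896), which had log2 fold changes of -0.89, -0.85 and -0.73. Nearest to Smad3 were Bicdl1 (0.127), the sphingosine phosphatase gene Sgpp2 (0.144) and the amino acid transporter gene Slc43a2 (0.158), with log2 fold changes of -1.21, -1.0 and -0.95. Nearest to Skil, which hardly varied, were mt-Co1 (0.0367), Rab5c (0.0533) and Fam120a (0.0538). The neighbours of Smad3 were farther from it than those of Tgfbr2 and Skil were from theirs.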

How the data were processed

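RNA of 3 CD25-high and 3 CD25-low libraries was sequenced after preparation with a NuGEN Ovation kit for total RNA, per the labels' protocols. The deposited table holds raw read counts per Ensembl gene, whose smallest row total is 10. Per the submitters' processing notes, Novoalign, DESeq2, mm10 and hg19 were used, in roles they do not state. For the counting tool, its strand setting and its annotation, the status is "not given in the sources used here". Names, positions and exonic lengths came from GENCODE M21 (15169 identifiers named, 276 not).

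Counts were tested with edgeR 4.0.16 (quasi-likelihood, TMM, filterByExpr with minimum count 10 and total 15, 12987 genes) in R 4.3.3, Benjamini-Hochberg adjustment over all tested genes and a threshold of 0.05. SE was taken as the size of the log2 fold change divided by the root of the F statistic. Over the 2000 most variable genes, deviations of same-numbered libraries correlated at 0.342, 0.188 and 0.16, above the limit of 0.1, so the numbers were taken to pair libraries, from the data alone. CD25-high library 2 and CD25-low library 3 reached 0.126 as well, and CD25-high library 3 and CD25-low library 2 had 0.0703. Libraries numbered 1 had -0.251 to -0.188 with those of other numbers in the other group. The pairing thus rests mainly on the libraries numbered 1. Alternatives were DESeq2 1.42.0, limma 3.58.1 voom, other factors and filters, removal of mitochondrial and the 50 most abundant genes, a replicate block and each library left out.

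The 10 genes and all lists were chosen with earlier results of these data known. Named besides them are Il2ra, for each list up to 3 called genes in a direction, otherwise its 2 genes of smallest p, the most abundant markers of other cell types, and the 3 nearest patterns. Prf1, Gzmb and Myc were named after their values were seen. Some genes named by this rule are left out of the text.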

Additional observations from a re-analysis of the deposited data

How the results depend on the processing

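Over all tested genes 85 were called. DESeq2 called 376 and the replicate block 601. Each library left out gave 22 to 130 calls, the block without pair 1, 2 or 3 gave 461, 486 and 536, and no block without these pairs 380, 9 and 8. The last 6 fits were added after the data were seen. Each has few libraries to estimate an error from, so their calls and p-values are uncertain. Of the 10 genes 0 were called, against 1 with DESeq2 (Smad3), 2 with the replicate block, 2, 1 and 1 with the block without pair 1, 2 or 3, and 0 with any library left out. The 80 pathway genes had 1 call, against 7 with DESeq2, 10 with the block, 8, 9 and 10 with the block without each pair, 8, 0 and 0 without each pair and without a block, and 0 to 1 with a library left out. The cause of these changes was not tested. Limma voom, other factors and filters called none of the 10 genes (lowest adjusted p 0.0804, Smad3), and the other fold changes of the 10 genes kept their sign except Skil, at -0.0109 to 0.1989 with a library left out (negative without CD25-low library 2) and, without pair 2, at -0.0331 with and -0.0328 without the block. Tab3 ranged from -0.1027 (without CD25-high library 1) to 0.4195, and without pair 1 had -0.1429 without and -0.129 with the block. Scaling moved the median of all genes by less than 0.1. Smad7 rests on few reads, and 3 libraries a group limit every test.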
